A study of Homo sapiens with 16 samples.

Results

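Toll-like receptors (TLRs) with the proteins that help them see bacterial lipopolysaccharide and pass the signal on were followed in 2 human acute myeloid leukaemia cell lines. The set held 10 of the 60603 genes in the authors' count table, picked by symbol: the receptors TLR1, TLR2, TLR4, TLR5, TLR6, TLR8 and TLR9, the lipopolysaccharide helpers CD14 and LY96 (which encodes MD-2), and the adaptor MYD88. Of the lines, SKNO-1 has the RUNX1-RUNX1T1 fusion gene and U-937 resembles monocytes. Cells of each line spent 24 h in the solvent DMSO, in all-trans retinoic acid (ATRA) at 0.1 µM, in Corin at 0.1 µM, or in both agents at 0.1 µM each, and every one of the 8 groups had 2 libraries of total RNA. ATRA activates retinoic acid receptors, and Corin blocks the CoREST complex through the demethylase LSD1 and the deacetylases HDAC1 and HDAC2. The medium of SKNO-1 also held GM-CSF at 10 ng/mL in all its groups, so differences between the lines and effects of that cytokine cannot be told apart. The labels do not say that the 2 libraries of a group came from separate cultures, and p-values then measure only the spread between these libraries.

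TLRs are the receptors with which monocytes and macrophages detect microbes. On the cell surface TLR2 pairs with TLR1 or TLR6 to bind bacterial lipoproteins, TLR4 binds lipopolysaccharide together with MD-2 after CD14 has handed it over, and TLR5 binds flagellin, whereas TLR8 and TLR9 read RNA and DNA inside endosomes. All of the receptors in the set signal through the adaptor MYD88 to IRAK kinases, TRAF6 and NF-kB, and monocytes are known to carry more of this machinery than their precursors.

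TLR1 and TLR6 are neighbours in the annotation, and both moved by the largest margins together with TLR8 and LY96. In GENCODE v44 on GRCh38, TLR1 (ENSG00000174125.8) spans chromosome 4, 38790677 to 38856817, on the minus strand. TLR6 (ENSG00000174130.12) spans 38822897 to 38856817 on the same strand, wholly inside the TLR1 span, and the annotated 5′ ends of both genes differ by 0 bases. Another receptor gene, TLR10, starts 7.7 kb beyond the 3′ end of TLR1, and the 3 genes together cover 84.6 kb. The RefSeq start (GRCh38.p14) of TLR6 is also the 5′ end of the TLR1 gene span, though starts of single TLR1 transcripts were not examined. TLR8 was the receptor with the largest fold change, and TLR5 rose with ATRA in both lines. The 250 bases before the RefSeq start are shown for TLR6, TLR8 and TLR5. They read 5′ to 3′ on the strand of the gene, and capitals mark matches to 4 short motifs: AGGTCA (the half-site of retinoic acid receptors), GAGGAA (the core bound by PU.1), TTGCNNAA (C/EBP) and GGG followed after any 5 bases by CC (NF-kB), each searched on both strands, where matches may overlap.
TLR6, chr4:38856818-38857067, minus strand: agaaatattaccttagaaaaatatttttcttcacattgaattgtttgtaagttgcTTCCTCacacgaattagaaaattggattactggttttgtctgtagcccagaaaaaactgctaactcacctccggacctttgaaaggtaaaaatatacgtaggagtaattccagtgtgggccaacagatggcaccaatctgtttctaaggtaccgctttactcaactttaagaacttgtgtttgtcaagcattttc
TLR8, chrX:12906370-12906619, plus strand: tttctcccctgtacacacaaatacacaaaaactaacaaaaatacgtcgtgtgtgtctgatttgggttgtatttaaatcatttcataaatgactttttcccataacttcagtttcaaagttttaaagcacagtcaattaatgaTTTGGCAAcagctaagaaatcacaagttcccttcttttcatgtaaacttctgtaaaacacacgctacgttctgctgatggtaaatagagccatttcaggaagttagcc
TLR5, chr1:223143249-223143498, minus strand: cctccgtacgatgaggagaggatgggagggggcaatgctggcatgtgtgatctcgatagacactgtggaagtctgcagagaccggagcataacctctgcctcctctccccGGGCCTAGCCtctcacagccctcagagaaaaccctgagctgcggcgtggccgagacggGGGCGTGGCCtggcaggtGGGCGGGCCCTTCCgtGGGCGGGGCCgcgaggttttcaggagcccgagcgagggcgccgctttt

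The TLR6 and TLR8 stretches are poor in G and C, at 36.4% and 34.8%, and the TLR5 stretch is rich in them at 66%. TLR6 holds 1 match to the PU.1 core, on the opposite strand, TLR8 holds 1 C/EBP match, and TLR5 holds 5 matches to the loose NF-kB letters. RefSeq windows of 300 bases, reaching 50 bases past the start, were given for 8 of the 10 genes and not for TLR1 or LY96. Among those 8 windows AGGTCA occurred in 0, the PU.1 core in 5, the C/EBP letters in 1 and the NF-kB letters in 3. Over 35116 RefSeq windows of the same length the shares were 13.8%, 27.9%, 10.5% and 58.7%. These matches describe letters in short windows and carry no evidence of binding.

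The remaining genes lie apart from each other. TLR2 (ENSG00000137462.8) is at 153684070 to 153706260 on the plus strand of chromosome 4, TLR4 (ENSG00000136869.16) at 117704175 to 117724735 on the plus strand of chromosome 9, and TLR5 (ENSG00000187554.14) at 223109404 to 223143248 on the minus strand of chromosome 1. TLR8 (ENSG00000101916.11) is at 12906620 to 12923169 on the plus strand of chromosome X, and TLR9 (ENSG00000239732.3) at 52221080 to 52225645 on the minus strand of chromosome 3. CD14 (ENSG00000170458.14) is at 140631728 to 140633700 on the minus strand of chromosome 5, LY96 (ENSG00000154589.6) at 73991392 to 74029079 on the plus strand of chromosome 8, and MYD88 (ENSG00000172936.14) at 38138552 to 38143024 on the plus strand of chromosome 3. Reads of near-identical sequence are divided by a model, so the share of 100-base stretches of each gene's transcripts that also occur in another gene was counted. It was 2.5% for TLR1 and 1.7% for TLR6, each with the other, 5.1% for TLR4 and 0.0% for TLR2, TLR5, TLR8, CD14, LY96 and MYD88. For TLR9 it was 96.6%, shared with an overlapping gene model, so the TLR9 counts are uncertain. Of the TLR1 and TLR6 estimated counts 100.0% were not whole, beside 20.4% of all positive values. Some of their reads were thus divided by the model in every library, and the 2 genes are not measured fully apart.

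Library totals ran from 32.8 to 37.8 M estimated counts in SKNO-1 and from 28.4 to 37.6 M in U-937. The pairs of libraries differed by an SD of 0.108 to 0.209 (log2, across well-expressed genes) in 7 groups. In the SKNO-1 DMSO group the SD was 0.361, and the difference had a Pearson correlation of 0.811 with GC content over 9344 genes. That correlation was 0.585 in U-937 with DMSO, 0.403 in U-937 with both agents and -0.433 in SKNO-1 with ATRA. It ran from -0.163 to 0.116 in the remaining groups. The part of the spread within pairs in the results below was tested only by removing the GC trend and by leaving out each library. The line markers HOXA9 and HOXA10 went with the labels, at 0 counts in SKNO-1 and present in U-937. The other line marker, RUNX1T1, was present in SKNO-1, where the 3 line markers summed to 92 to 148 CPM. It was not absent from U-937, so its presence alone does not tell the lines apart. The 4 myeloid markers summed to 1930 to 4060 CPM (counts scaled to library size) in SKNO-1 and to 129 to 391 CPM in U-937. Markers of T cells, B cells, erythroid, epithelial and fibroblast cells stayed at or below 5.14 CPM per list in every library.

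With DMSO alone, RNA of both lines already held TLR2, TLR4 and MYD88, while the other members were scarce. Levels of different genes are compared on the authors' TPM, a transcript abundance corrected for gene length. In SKNO-1 with DMSO the order was led by TLR2 at 9.78 ± 2.50 TPM (SD, n = 2, as for all means below), TLR4 at 8.48 ± 1.89 TPM and MYD88 at 7.98 ± 3.06 TPM, which did not differ beyond their spread. TLR1 followed at 0.550 ± 0.325 TPM and LY96 at 0.415 ± 0.0212 TPM, also within their spread, and TLR6, TLR5 and TLR8 were at 0.145 TPM or less. CD14 and TLR9 were listed at 0 in both SKNO-1 DMSO libraries. In U-937 with DMSO the order was TLR4 at 17.6 ± 2.95 TPM and MYD88 at 15.1 ± 0.233 TPM, within their spread, then TLR2 at 8.27 ± 0.926 TPM and LY96 at 1.18 ± 0.226 TPM, with the rest at 0.325 TPM or less.

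On the TPM scale the combination reshuffled that order. In U-937 with both agents TLR4 stood at 39.5 ± 0.728 TPM and LY96 at 35.8 ± 6.60 TPM, within their spread of each other, so the helper that had been far below its receptor in DMSO came to a like level. MYD88 was at 20.6 ± 1.92 TPM, TLR1 at 15.2 ± 1.25 TPM and TLR2 at 5.995 ± 0.347 TPM. TLR6 at 4.36 ± 0.311 TPM and TLR8 at 3.55 ± 0.149 TPM came next, and TLR5 was at 1.00 ± 0.113 TPM. In SKNO-1 with both agents LY96 led at 9.91 ± 0.205 TPM, above TLR4 at 7.32 ± 0.403 TPM and TLR2 at 6.10 ± 0.566 TPM, while TLR1 reached 5.11 ± 0.552 TPM. TPM rank genes within a group, and between groups they can part from CPM (counts scaled to library size). From DMSO to both agents, U-937 TLR2 had 8.27 and 5.995 TPM but 19.9 and 20.4 CPM. SKNO-1 TLR4 had 8.48 and 7.32 TPM but 51.8 and 58.2 CPM. Changes between groups are therefore read from the tested counts below. Less RNA per cell and fewer cells with the transcript cannot be told apart in bulk libraries such as these.

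**Figure D1:**
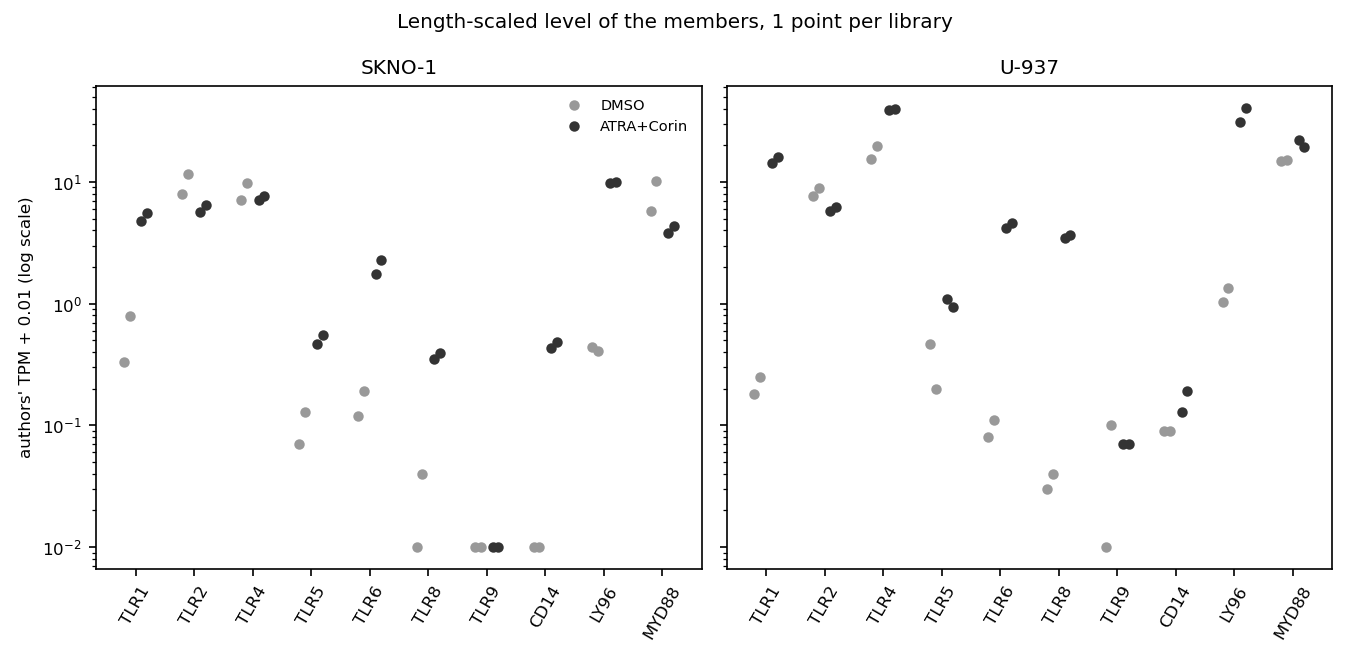
The authors' TPM + 0.01 on a log scale for each gene (x axis) in DMSO (grey) and with ATRA and Corin together (black), 1 point per library, SKNO-1 left and U-937 right. TLR2 and MYD88 keep to the upper part of the plot in every library, whereas TLR1, TLR6, TLR8 and LY96 climb from at most 1.34 TPM in DMSO, LY96 in U-937 reaching 31.2 and 40.5 TPM.

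Changes were tested on counts with edgeR's quasi-likelihood test, adjusted over all genes tested in the line, and a gene is called when its adjusted p is under 0.05. Of the 10 genes 9 could be tested in each line, since TLR9 in SKNO-1 and CD14 in U-937 stayed below the filter on low counts. In SKNO-1 TLR5, TLR8, LY96 and CD14 passed that filter (0.293 CPM) only through treated libraries, as did TLR8 in U-937 (0.303 CPM). TLR6 and TLR9 in U-937 had 1 DMSO library over the cutoff, so they too passed only with the help of treated libraries. A gene that enters in this way is high in a treated group by selection, so the counts and medians below describe the genes tested and are no support for a common response.

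In SKNO-1, ATRA lowered TLR1, TLR6 and MYD88 and raised TLR4 and TLR5. These 5 calls among 9 genes tested stand beside 6.76% of all genes called, and they rest on few libraries: 1 was left without ATRA replicate 1, 2 without ATRA replicate 2 and 0 in a fit of the DMSO and ATRA libraries alone. The share of all genes depends on the same libraries, with 1181 genes called in all, 582 without ATRA replicate 1, 562 without ATRA replicate 2, 5335 without DMSO replicate 1 and 4522 without DMSO replicate 2. Corin in SKNO-1 raised 6 of 9 (TLR1, TLR5, TLR6, TLR8, CD14 and LY96) and lowered TLR4, beside 37.9% of all genes called, and 5 and 4 calls were left without Corin replicates 1 and 2. With both agents TLR1, TLR5, TLR6, TLR8, CD14 and LY96 were higher than in DMSO and TLR2 and MYD88 lower, 8 of 9 beside 46.7% of all genes. The median log2 fold change of the genes tested was 0.00 with ATRA, 3.55 with Corin and 3.66 with both, against medians over all genes of 0.01, 0.00 and 0.05. The ATRA median was the fitted value of CD14, which had 0 counts in both groups. That with Corin was the value of TLR8, which passed the filter only through treated libraries, so these medians are a description only.

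In U-937, ATRA raised 7 of 9 genes (TLR1, TLR4, TLR5, TLR6, TLR8, LY96 and MYD88), beside 41.8% of all genes called. Corin raised TLR1, TLR6, TLR8 and LY96, 4 of 9, beside 12.9% of all genes. The combination raised TLR1, TLR4, TLR5, TLR6, TLR8, LY96 and MYD88, 7 of 9, beside 65.3% of all genes. No member fell in U-937 in these comparisons by this test, and the 2 tested genes that were not called with ATRA or with both agents were TLR2 and TLR9. The median log2 fold change of the genes tested was 2.20, 1.13 and 2.66 with ATRA, Corin and both, against 0.02, 0.00 and 0.03 over all genes. The Corin median was the value of TLR9, which was not called.

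Adding one agent to the other was read from the same fits. In SKNO-1 the combination exceeded ATRA alone in 6 of 9 genes (TLR1, TLR5, TLR6, TLR8, CD14 and LY96) and was lower in TLR2 and TLR4, 8 calls beside 44.8% of all genes. Against Corin alone it was higher in TLR4, TLR5 and CD14 and lower in MYD88, 4 calls beside 10.4% of all genes, of which 1 or 2 were left when any one library of those groups was omitted. In U-937 it exceeded ATRA alone in TLR1, TLR4, TLR6, TLR8, LY96 and MYD88, 6 of 9 beside 47.4% of all genes, and 4 were left without ATRA replicate 1. It exceeded Corin alone in TLR1, TLR4, TLR5, TLR6, TLR8, LY96 and MYD88, 7 of 9 beside 60.5% of all genes. The SKNO-1 comparisons share their DMSO, ATRA, Corin and combination libraries with each other, as do those of U-937.

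**Figure D2:**
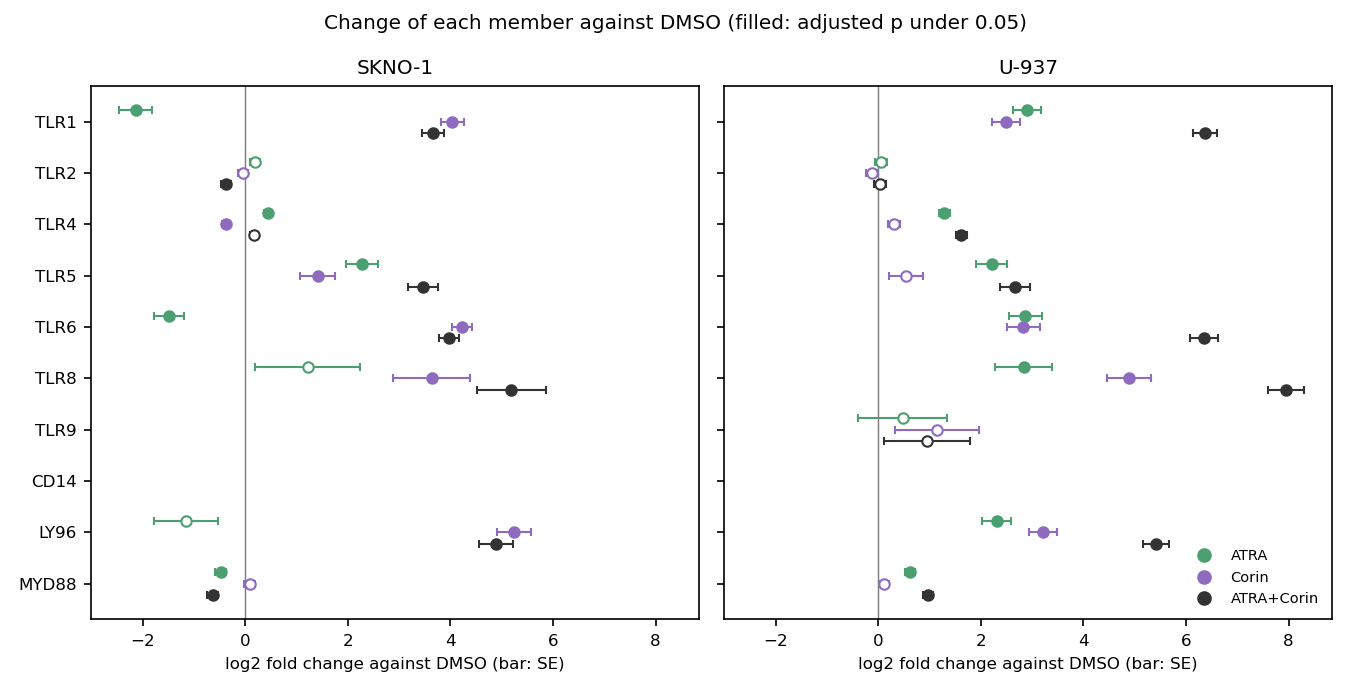
Log2 fold change against DMSO (x axis, bars are SE) of each gene for ATRA (green), Corin (violet) and both (black), filled where the adjusted p is under 0.05, SKNO-1 left and U-937 right. TLR1 with ATRA lies at -2.14 in SKNO-1 and at 2.90 in U-937, and no point is drawn for a gene that was not tested or had a group with 0 counts.

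The lipoprotein receptors split: TLR1 and TLR6, the partners of TLR2, moved widely, and TLR2 itself shifted little. U-937 libraries had TLR1 at 0.470 and 0.645 CPM with DMSO, 4.52 and 3.73 CPM with ATRA, 3.70 and 2.48 CPM with Corin, and 41.3 and 50.6 CPM with both. Every treated library was above both DMSO libraries, and the combination stood far above either single agent. The log2 fold changes were 2.90 (SE 0.264, adjusted p = 9.02e-09) with ATRA, 2.49 (SE 0.274, adjusted p = 7.35e-07) with Corin and 6.37 (SE 0.228, adjusted p = 2.57e-16), an 82.9-fold rise, with both. TLR6 followed with 0.345 and 0.271 CPM in DMSO, 2.79 and 1.70 CPM with ATRA, 2.10 and 2.29 CPM with Corin, and 23.3 and 27.3 CPM with both. Its rise was 2.87 (SE 0.320) with ATRA, 2.82 (SE 0.322) with Corin and 6.35 (SE 0.272, adjusted p = 1.12e-15), or 81.8-fold, with both. Adding Corin to ATRA raised TLR1 11.1-fold and TLR6 11.2-fold, and adding ATRA to Corin raised them 14.7-fold and 11.6-fold.

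In SKNO-1 the same receptors rose with Corin and did not rise with ATRA. TLR1 was at 0.954 and 1.53 CPM in DMSO, 0.210 and 0.351 CPM with ATRA, 20.9 and 20.1 CPM with Corin, and 15.02 and 16.56 CPM with both. The ATRA libraries were below both DMSO libraries, and the Corin libraries were the highest. TLR1 fell with ATRA by 2.14 on the log2 scale (SE 0.327, adjusted p = 0.00608), or 4.399-fold, from 91 counts over the DMSO pair to 20, and the adjusted p was 0.0607 without ATRA replicate 1. It rose by 4.04 (SE 0.216, adjusted p = 1.36e-05), or 16.4-fold, with Corin and by 3.66 (SE 0.215) with both. TLR6 was at 0.636 and 0.869 CPM in DMSO, 0.210 and 0.324 CPM with ATRA, 13.8 and 14.5 CPM with Corin, and 11.5 and 12.4 CPM with both. TLR6 had a log2 fold change of -1.49 (SE 0.289, adjusted p = 0.0193) with ATRA, a call lost without ATRA replicate 1 (0.141) or replicate 2 (0.0555), and of 4.23 (SE 0.191, adjusted p = 6.60e-06), 18.7-fold, with Corin. With both agents it was 3.98 (SE 0.191). The combination was not called against Corin alone in TLR1 (-0.38, SE 0.175, adjusted p = 0.185) or TLR6 (-0.25, SE 0.149, adjusted p = 0.291), whereas a fit of only those 4 libraries called both lower (adjusted p = 0.000515 and 0.0341). When TLR1 and TLR6 counts were summed before the fit, an alternative chosen after seeing the data, the sum changed by -1.85 with ATRA, 4.11 with Corin and 3.79 with both in SKNO-1, and by 2.88, 2.61 and 6.36 in U-937.

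TLR2, the shared partner of those receptors, was not called with any treatment in U-937. Its libraries read 19.5 and 20.3 CPM with DMSO, 19.5 and 21.7 with ATRA, 18.2 and 18.3 with Corin, and 18.6 and 22.2 with both. The log2 fold change with both agents was 0.04 (SE 0.121, adjusted p = 0.799), and the groups overlapped apart from Corin, which lay below the others. In SKNO-1 TLR2 was at 25.5 and 28.4 CPM in DMSO, 32.6 and 29.0 with ATRA, 26.6 and 25.5 with Corin, and 20.5 and 21.1 with both. The combination libraries were the lowest of the 8, at a log2 fold change of -0.37 (SE 0.0959, adjusted p = 0.0139). This call was lost without combination replicate 1 or replicate 2 and in a fit of only the groups compared (adjusted p = 0.06995). Against ATRA alone the log2 difference was -0.57 (SE 0.0958, adjusted p = 0.00212).

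TLR8, the endosomal receptor for single-stranded RNA, had the largest fold change of the set. U-937 showed 2 and 3 TLR8 counts under DMSO, 14 and 26 with ATRA, 101 and 65 with Corin, and 621 and 642 with both, which is 0.0822 ± 0.0277 CPM in DMSO and 20.2 ± 2.60 CPM with both. Each treated group lay wholly above DMSO. The log2 fold change was 2.83 (SE 0.551, adjusted p = 0.000201) with ATRA, 4.89 (SE 0.428, adjusted p = 9.79e-09) with Corin and 7.95 (SE 0.354, adjusted p = 2.20e-15), or 248-fold, with both, a size that rests on 5 DMSO counts. In SKNO-1 TLR8 stayed scarce, with 0 and 4 counts in DMSO, 5 and 4 with ATRA, 16 and 31 with Corin, and 65 and 66 with both. It rose by 3.63 (SE 0.758, adjusted p = 0.00714) with Corin, where the adjusted p was 0.0547 without Corin replicate 2, and by 5.19 (SE 0.672, adjusted p = 0.000550) with both. With ATRA alone its value was 1.22 (SE 1.02, adjusted p = 0.630), which did not pass.

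TLR9, the endosomal DNA receptor, was at the limit of detection. In SKNO-1 its counts were 0 and 0 in DMSO, 2 and 4 with ATRA, 3 and 0 with Corin, and 0 and 0 with both, too few to be tested. In U-937 they were 0 and 10 in DMSO, 11 and 5 with ATRA, 15 and 10 with Corin, and 10 and 10 with both. The DMSO libraries alone spanned the values of most treated libraries, and none of the treatments was called (log2 fold change with both 0.95, SE 0.839, adjusted p = 0.331). Without DMSO replicate 2, which holds all 10 DMSO counts, TLR9 was called higher with ATRA (adjusted p = 0.0224), Corin (0.0251) and both (0.00519), so this result hangs on 1 DMSO library.

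**Figure D3:**
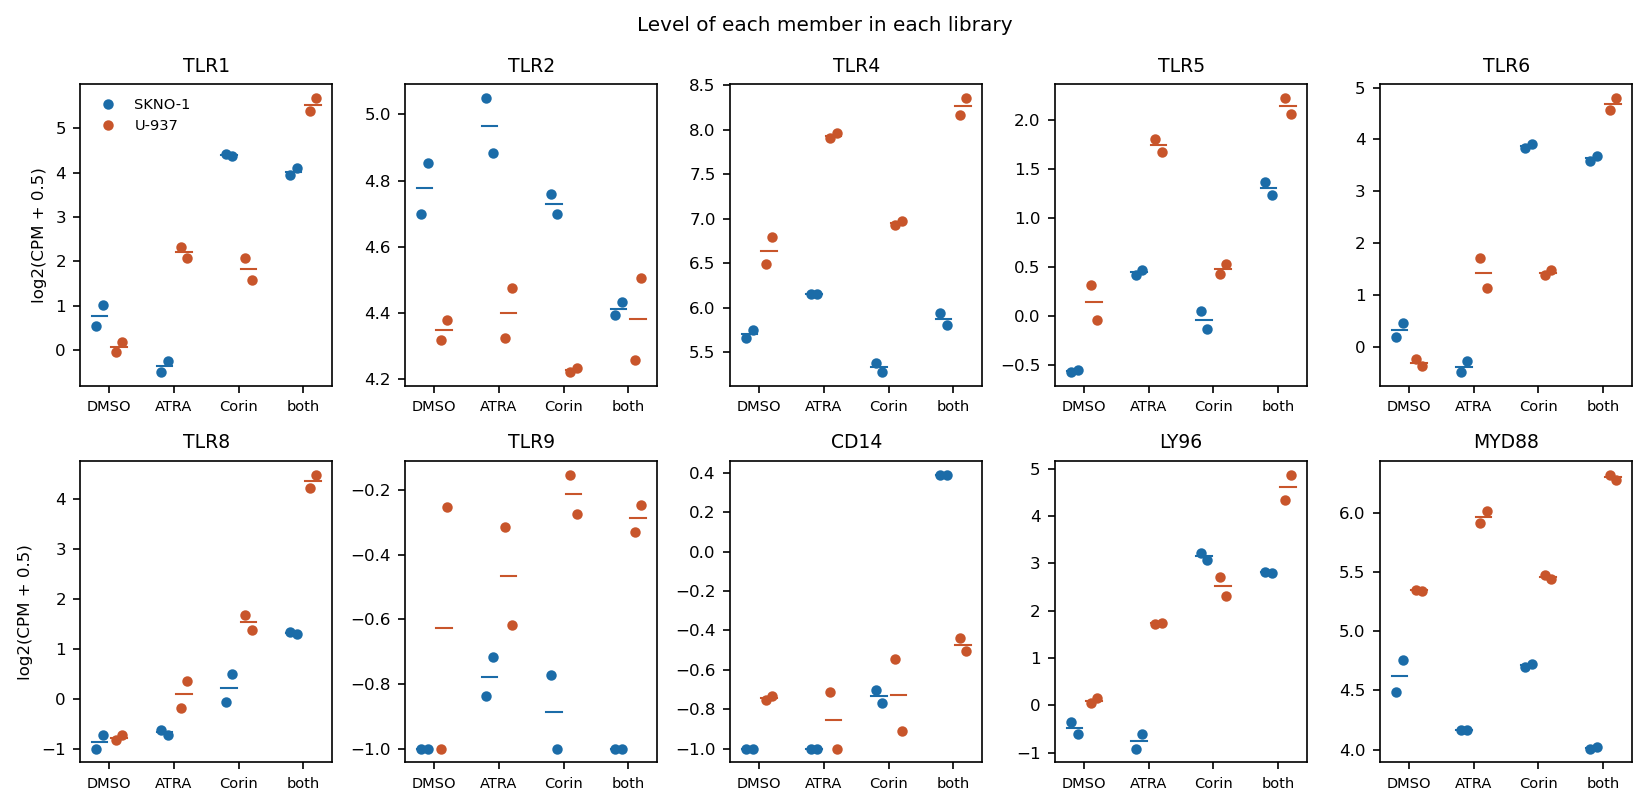
Log2(CPM + 0.5) of each gene in each library, 1 panel per gene with its own y axis, SKNO-1 in blue and U-937 in orange, a line at the mean of each pair, groups along the x axis. TLR1, TLR6, TLR8 and LY96 rise over several log2 units, while the group means of TLR2, TLR9 and CD14 span 0.74, 0.79 and 1.39 units.

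The lipopolysaccharide receptor is TLR4 with MD-2, and both genes rose in U-937. LY96, which encodes MD-2, was at 0.532 and 0.611 CPM in DMSO, 2.81 and 2.85 CPM with ATRA, 6.04 and 4.47 CPM with Corin, and 19.8 and 28.8 CPM with both. The groups did not overlap and stood in that order. Its log2 fold change was 2.31 (SE 0.285, adjusted p = 6.49e-07) with ATRA, 3.21 (SE 0.268, adjusted p = 6.09e-09) with Corin and 5.41 (SE 0.252, adjusted p = 9.16e-15), or 42.6-fold, with both. TLR4, the receptor itself, was at 89.7 and 110.3 CPM in DMSO, 239.9 and 248.9 CPM with ATRA, 121.7 and 125.5 CPM with Corin, and 287.5 and 327.2 CPM with both. TLR4 rose by 1.29 (SE 0.109, adjusted p = 1.23e-09) with ATRA and by 1.62 (SE 0.110, adjusted p = 4.99e-12), or 3.08-fold, with both. Corin alone gave 0.31 (SE 0.108, adjusted p = 0.0648), which did not pass, but it was called with library totals (0.0373), after removal of the GC trend (0.00746), in a fit of only those groups (0.0176) and without DMSO replicate 2 (0.0326). Both agents exceeded ATRA alone by 0.33 (SE 0.106, adjusted p = 0.0128), a call lost when ATRA replicate 1 (adjusted p = 0.114), ATRA replicate 2 (0.0537) or combination replicate 2 (0.121) was omitted.

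In SKNO-1 LY96 went from nearly none to several CPM with Corin, and TLR4 shifted little. LY96 was at 0.289 and 0.158 CPM in DMSO, 0.0300 and 0.162 CPM with ATRA, 8.83 and 7.90 CPM with Corin, and 6.58 and 6.48 CPM with both. The ATRA and DMSO libraries overlapped, and the Corin and combination libraries were far above them. LY96 rose by 5.24 (SE 0.334, adjusted p = 2.90e-05), or 37.9-fold, with Corin and by 4.88 (SE 0.337, adjusted p = 2.73e-05), or 29.5-fold, with both, and ATRA gave -1.16 (SE 0.622, adjusted p = 0.395). TLR4 was at 50.1 and 53.5 CPM in DMSO, 70.5 and 70.7 CPM with ATRA, 41.2 and 38.2 CPM with Corin, and 61.1 and 55.2 CPM with both. ATRA raised it by 0.45 (SE 0.0775, adjusted p = 0.0112), a call lost without ATRA replicate 1 (0.126) or replicate 2 (0.133). Corin lowered it by 0.38, a log2 fold change of -0.38 (SE 0.0783, adjusted p = 0.00657). That call was lost without Corin replicate 2 and in a fit of only the groups compared (0.0506). With both agents the value was 0.17 (SE 0.0777, adjusted p = 0.114), between the single agents, and it was called higher after removal of the GC trend (0.00128) and without DMSO replicate 2 (0.0124). The combination was below ATRA alone by a log2 difference of -0.28 (adjusted p = 0.0200), a call lost without ATRA replicate 1 (0.122), ATRA replicate 2 (0.131) or combination replicate 2 (0.148) and after removal of the GC trend (0.0598).

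CD14, the classic surface marker of monocytes, stayed close to absent in both lines. In SKNO-1 it had 0 counts in the 4 DMSO and ATRA libraries, 4 and 3 with Corin, and 26 and 27 with both. Against a floor of 3 counts over the DMSO pair this is at least 19.6-fold higher with both agents (adjusted p = 0.000913) and at least 2.45-fold higher with Corin (adjusted p = 0.0279). The Corin call, on 7 counts, was lost without any one of the 4 libraries compared (adjusted p = 0.0609 to 0.110) and in DESeq2 (0.0559). The combination exceeded Corin by 3.001 (SE 0.498, adjusted p = 0.0194), which was lost without any one of those 4 libraries (0.157 to 0.181) and with the replicate block (0.0512). In U-937 CD14 had 3 and 3 counts in DMSO, 4 and 0 with ATRA, 7 and 1 with Corin, and 8 and 6 with both, and was not tested. On the authors' length-corrected scale U-937 with both agents had CD14 at 0.150 ± 0.0424 TPM and TLR4, which it serves, at 39.5 ± 0.728 TPM.

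TLR5, the flagellin receptor, rose with ATRA in both lines and stayed a low-abundance transcript. In U-937 its libraries had 24 and 14 counts in DMSO, 109 and 89 with ATRA, 32 and 29 with Corin, and 141 and 107 with both. ATRA raised it by 2.21 (SE 0.299, adjusted p = 2.14e-06), or 4.63-fold, and both agents by 2.67 (SE 0.296, adjusted p = 2.97e-08), while Corin gave 0.54 (SE 0.333, adjusted p = 0.329). ATRA libraries were well above DMSO, and the combination did not differ detectably from ATRA alone (0.46, SE 0.248, adjusted p = 0.133). In SKNO-1 the counts were 6 and 7 in DMSO, 28 and 33 with ATRA, 19 and 14 with Corin, and 67 and 62 with both. TLR5 rose there by 2.27 (SE 0.315, adjusted p = 0.00370) with ATRA, by 1.41 (SE 0.342, adjusted p = 0.0137) with Corin and by 3.46 (SE 0.293, adjusted p = 7.17e-05), or 11.02-fold, with both. The Corin call was lost without Corin replicate 1, in DESeq2 (adjusted p = 0.0743) and in the fit of only the groups compared (0.0702). The ATRA call was lost in the fit of only the DMSO and ATRA libraries (0.0587). The combination was above ATRA alone by 1.19 (SE 0.234, adjusted p = 0.00435) and above Corin alone by 2.05 (SE 0.253, adjusted p = 0.00236).

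MYD88, the adaptor that joins these receptors to the IRAK kinases, moved in opposite directions in the lines. In U-937 it was at 40.2 and 40.1 CPM in DMSO, 59.6 and 64.0 CPM with ATRA, 43.9 and 42.9 CPM with Corin, and 79.5 and 77.3 CPM with both. The ATRA and combination libraries were above the DMSO libraries, with log2 fold changes of 0.62 (SE 0.0975, adjusted p = 1.50e-05) and 0.97 (SE 0.0977, adjusted p = 6.28e-09), and Corin gave 0.11 (SE 0.0980, adjusted p = 0.517). The excess of both agents over ATRA was not called without ATRA replicate 1 (0.110). In SKNO-1 MYD88 was at 21.9 and 26.6 CPM in DMSO, 17.5 and 17.4 CPM with ATRA, 25.5 and 25.9 CPM with Corin, and 15.6 and 15.8 CPM with both. Both groups that held ATRA were below DMSO, at -0.48 (SE 0.106, adjusted p = 0.0353) with ATRA and -0.63 (SE 0.107, adjusted p = 0.00204) with both. The ATRA call was lost without ATRA replicate 1 (0.178) or replicate 2 (0.176), with library totals (0.0590) and with the replicate block (0.0627), and that of the combination was kept in each alternative run.

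Whether the agents together gave more than the sum of their single log2 effects was tested in each line. In SKNO-1 0 of 9 genes departed from additivity by edgeR's quasi-likelihood test, beside 0.463% of all genes, with 3 at an unadjusted p under 0.05 and 1 called by DESeq2. CD14 is counted among the 9, but with 0 counts in DMSO and in ATRA its departure could not be estimated, so nothing is read from it. TLR1 had an excess of 1.76 (SE 0.378, adjusted p = 0.117) and TLR6 of 1.24 (SE 0.328, adjusted p = 0.189). TLR2 was at -0.52 (SE 0.135, adjusted p = 0.186). The SKNO-1 count was 3 when DMSO replicate 1 or DMSO replicate 2 was left out, and the count over all genes then went from 81 to 1156 and 5648. Without any one of the other 6 SKNO-1 libraries no member was called, and 7 to 20 of all genes were. In U-937 0 of 9 genes were called, beside 23.4% of all genes, with 1 at an unadjusted p under 0.05 and 1 called by DESeq2. The excess there was 0.98 (SE 0.358, adjusted p = 0.0519) for TLR1, 0.66 (SE 0.427, adjusted p = 0.298) for TLR6, 0.23 (SE 0.708) for TLR8 and -0.11 (SE 0.357) for LY96. TLR1 was the gene called by DESeq2 (adjusted p = 0.0326), and 7 of its 14 alternative runs called the excess. By edgeR's test it was called without the filter (0.0274) and after removal of the GC trend (0.0436). Summed TLR1 and TLR6 counts had an excess of 0.864 (adjusted p = 0.0352). The TLR1 excess was 1.13 without ATRA replicate 1, 1.315 without Corin replicate 1 and 1.142 without combination replicate 1. Without DMSO replicate 2 the TLR1 excess was 0.74 (adjusted p = 0.352), and TLR9 was called instead (0.0448), against 0 DMSO counts.

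Before treatment the lines differed in most genes tested, the members among them. In DMSO U-937 was higher than SKNO-1 in 6 of 10 genes and lower in 3, beside 64.8% of all genes called, and 5 calls were left without SKNO-1 DMSO replicate 2 and 6 without U-937 DMSO replicate 2. TLR4 was higher in U-937 by 0.82 (SE 0.101, adjusted p = 8.19e-07), TLR5 by 1.66 (SE 0.387), MYD88 by 0.60 (SE 0.101) and LY96 by 1.24 (SE 0.456, adjusted p = 0.0229). TLR1 was lower by 1.30, a log2 difference of -1.30 (SE 0.329, adjusted p = 0.00194), TLR6 was at -1.42 (SE 0.366) and TLR2 at -0.57 (SE 0.115). The LY96 call was lost without SKNO-1 DMSO replicate 2 (0.164) or U-937 DMSO replicate 2 (0.0883) and with the replicate block (0.0534), and that of TLR1 without SKNO-1 DMSO replicate 2 (0.0565). The TLR9 and CD14 calls (adjusted p = 0.0267 and 0.0298) rest on 10 and 6 counts in U-937 against 0 in SKNO-1. Without U-937 DMSO replicate 2 TLR9 had 0 counts in both lines. Its call was also lost without either SKNO-1 DMSO library and with the replicate block (0.0942). The CD14 call was lost without any one DMSO library of either line.

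Responses were compared between lines as the log2 fold change in U-937 minus that in SKNO-1. With ATRA 5 of 10 genes differed, all more positive in U-937, beside 19.4% of all genes, and 5 were called whichever library was left out. TLR1 differed by 5.08 (SE 0.461, adjusted p = 2.48e-07), TLR6 by 4.39 (SE 0.484), LY96 by 3.51 (SE 0.712), MYD88 by 1.14 (SE 0.143) and TLR4 by 0.88 (SE 0.142). CD14 is counted among the 10, but it had 0 counts in SKNO-1 with DMSO and with ATRA, so its difference could not be estimated. The TLR5 response to ATRA differed by -0.02 (SE 0.479, adjusted p = 1), an estimate whose error leaves room for a difference in either direction. With Corin 4 of 10 differed, beside 12.8% of all genes: LY96 by -2.04 (SE 0.504), TLR1 by -1.54 (SE 0.406) and TLR6 by -1.40 (SE 0.449, adjusted p = 0.0465), all larger rises in SKNO-1, and TLR4 by 0.69 (SE 0.143). Without U-937 DMSO replicate 2 the Corin count was 1, with TLR1 (adjusted p = 0.149) and LY96 (0.0621) among the calls lost, and the TLR6 call was lost without any of 7 of the 8 libraries. With both agents 6 of 10 differed, beside 40.6% of all genes: TLR1 by 2.76 (SE 0.369), TLR6 by 2.42 (SE 0.404), MYD88 by 1.64 (SE 0.144), TLR4 by 1.498 (SE 0.143) and TLR2 by 0.46 (SE 0.162), all more positive in U-937, and CD14, which rose from 0 counts in SKNO-1 and had 6 counts in DMSO and 14 with both in U-937. The TLR2 difference (adjusted p = 0.0305) was lost with library totals (0.154), without the filter (0.0516) and without any one of 6 libraries (0.0508 to 0.160), which were SKNO-1 DMSO replicate 2, both SKNO-1 combination libraries, both U-937 DMSO libraries and U-937 combination replicate 2. LY96 did not differ detectably with both agents (0.57, SE 0.522, adjusted p = 0.432). For TLR9, with 0 counts in SKNO-1 in DMSO and with both agents, the difference in that response could not be estimated.

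**Figure D4:**
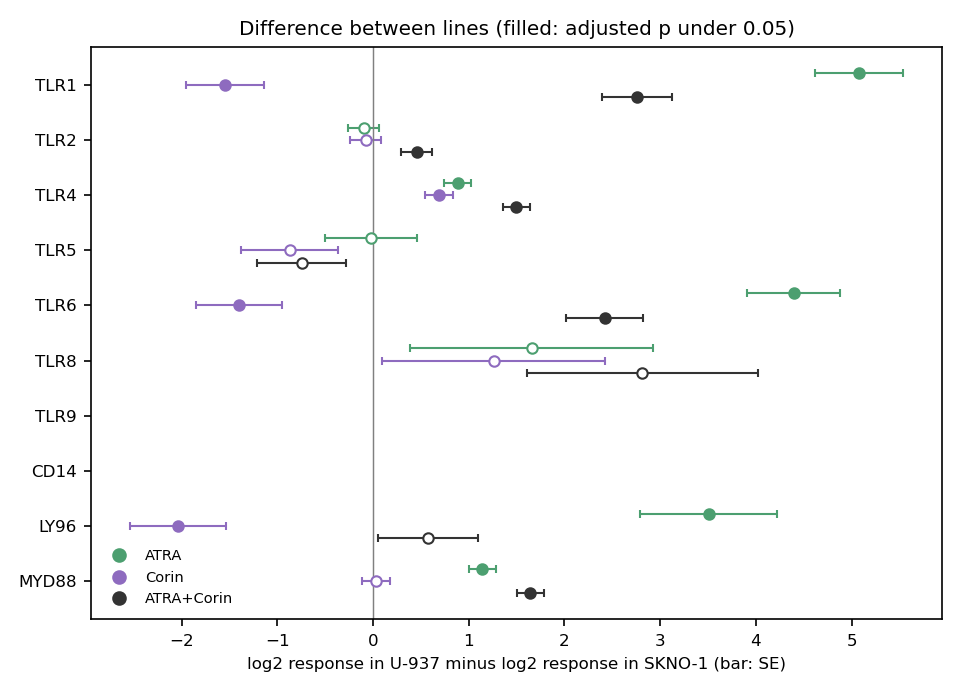
Log2 response in U-937 minus log2 response in SKNO-1 (x axis, bars are SE) for ATRA (green), Corin (violet) and both (black), filled where the adjusted p is under 0.05. For TLR1 the ATRA point is at 5.08 and the Corin point at -1.54, on opposite sides of 0, and TLR9 and CD14 are not drawn because a group had 0 counts.

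Other genes of the TLR pathway were taken from 7 lists of 52 genes, chosen by role and with earlier results of these data known. With both agents 17 of 44 tested genes rose and 7 fell in SKNO-1, and 33 of 48 rose and 5 fell in U-937, against 46.7% and 65.3% of all genes called in either direction. Of the receptors and co-receptors outside the main set 5 of 5 tested were called higher in SKNO-1 and 7 of 7 in U-937, at median log2 fold changes of 3.11 and 4.85. TLR7 and TLR10 in both lines, and TLR3 and LBP in U-937, had no DMSO library over the filter on low counts. TLR3 in SKNO-1 had only DMSO replicate 2 over it. All of these are high in treated libraries by selection, so the counts and medians above are a description only. TLR10, next to TLR1 and TLR6, had 1 and 2 counts in SKNO-1 with DMSO, 47 and 37 with Corin and 20 and 45 with both, and in U-937 0 and 0, 5 and 1, and 25 and 28. TLR7, an RNA receptor close to TLR8 in sequence, had 2 and 1 counts in SKNO-1 with DMSO and 17 and 15 with both (log2 fold change 3.56, SE 0.591, adjusted p = 0.00271), and 0 and 2 against 80 and 92 in U-937 (6.401, SE 0.689, adjusted p = 1.81e-08). TLR3, the double-stranded RNA receptor, rose by 3.13 (SE 0.365) and 3.74 (SE 0.464).

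Among the co-receptors, CD180, a TLR4-like protein that pairs with LY86, rose with ATRA in SKNO-1 and with Corin in U-937. In SKNO-1 CD180 stood at 8.17 ± 0.600 CPM with DMSO and 51.8 ± 0.897 CPM with ATRA (log2 fold change 2.67, SE 0.102), and it fell to 5.11 ± 0.540 CPM with Corin (-0.68, SE 0.108, adjusted p = 0.00205). In U-937 it went from 4.56 ± 0.696 CPM to 36.8 ± 1.56 CPM with Corin (3.01, SE 0.143), and ATRA gave -0.44 (SE 0.165, adjusted p = 0.0332). CD36, a scavenger receptor that assists TLR2 with TLR6, had 2 counts in the 8 SKNO-1 libraries together. With both agents it rose in U-937 by 4.85 (SE 0.136, adjusted p = 5.86e-19), from 29.9 ± 5.01 CPM in DMSO to 862 ± 92.7 CPM. LBP, the plasma protein that delivers lipopolysaccharide to CD14, had 5 and 0 counts in U-937 with DMSO and 286 and 250 with both (6.71, SE 0.480).

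The lists downstream of the receptors were counted in the same way. They stand beside 46.7% of all genes called with both agents in SKNO-1 (24.7% higher, 22% lower). In U-937 that share was 65.3% (33.1% higher, 32.2% lower). Of the kinases and ubiquitin ligases 2 of 13 tested rose and 3 fell in SKNO-1 with both agents, with a median of -0.04, and 8 rose and 3 fell of 13 in U-937, with a median of 0.41. Among the list genes that averaged 1 CPM or more in a line, the largest called rises in SKNO-1 were IRAK2 (1.92, SE 0.252), a kinase that MYD88 recruits, the TLR3 and TLR4 adaptor TICAM1 (1.86, SE 0.471), CD180 (1.80) and the chemokine gene CXCL8 (1.29, SE 0.0955). The largest called falls among them were PTGS2 (-1.45, SE 0.226), which encodes cyclooxygenase-2, the TLR chaperone HSP90B1 (-0.73, SE 0.0547), NFKB1 (-0.67, SE 0.0606), a subunit of NF-kB, and TRAF6 (-0.43, SE 0.0945). With the same limit on the level, the largest called rises in U-937 after LBP and CD36 were MAP3K8 (4.19, SE 0.115), the kinase that links TLRs to ERK, and IRF7 (3.27, SE 0.279), an interferon regulatory factor. TRAF3 fell there by 2.00 on the log2 scale (SE 0.111), and IRAK1 (-0.56, SE 0.0969), HSP90B1 (-0.52, SE 0.116) and NFKB1 (-0.52, SE 0.0972) were lower as well. Of the inducible targets 6 of 7 tested rose in U-937, with a median of 1.78, and in SKNO-1 4 of 6 rose while PTGS2 fell. In U-937 TNF rose by 2.76 (SE 0.280) and IL1B by 2.82 (SE 0.188), in cells to which no TLR ligand is said to have been added. The adaptor TIRAP, which bridges TLR2 or TLR4 to MYD88, rose by 1.55 (SE 0.172) in U-937, and in SKNO-1 its value was 0.32 (SE 0.146, adjusted p = 0.106).

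**Figure D5:**
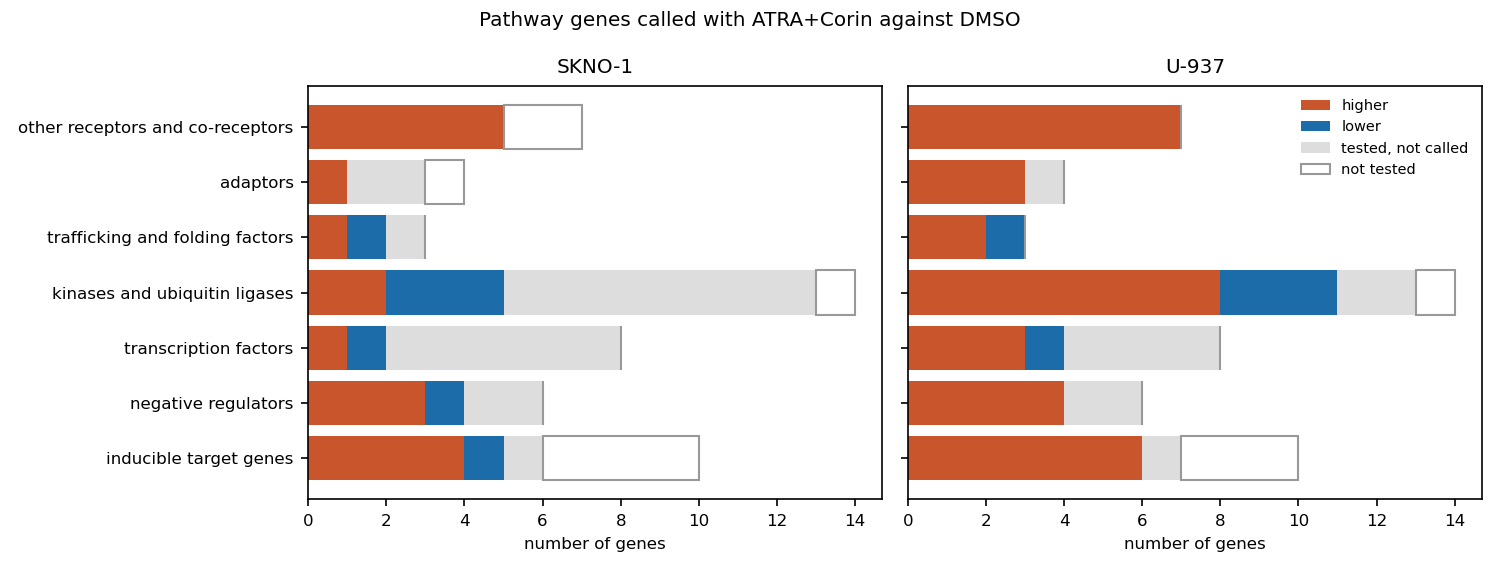
Number of genes (x axis) of each pathway list that rose (orange), fell (blue), were tested and not called (grey) or were not tested (white) with both agents against DMSO, SKNO-1 left and U-937 right. The top bar, other receptors and co-receptors, holds 5 higher of 5 tested in SKNO-1 and 7 of 7 in U-937, several of them tested only because treated libraries passed the filter, and the kinases and ubiquitin ligases hold 3 lower genes in each line.

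The genes whose pattern over the 8 groups lay closest to each member were found by the root mean square difference of log2(CPM + 0.5), each gene centred on its own mean, among 13924 protein-coding genes. LY96 lay closest to GLIPR1 (0.200 log2 units, against a range of 5.38 for LY96 itself) and HLA-DMA (0.362). TLR1 lay closest to CD101 (0.569) and GLIPR1 (0.626), and TLR6 to IER3 (0.474) and CD101 (0.476). TLR8 was nearest to ITGA1 (0.362) and LRRC25 (0.432), TLR5 to NDRG1 (0.197) and NCOA3 (0.206), and TLR4 to TRIM21 (0.154) and RPS6KA1 (0.182). MYD88 was nearest to ATP7A (0.161) and PTPN9 (0.168), TLR2 to NEMF (0.064) and G3BP2 (0.069), CD14 to TMEM130 (0.144) and CROCC (0.150), and TLR9 to FADD (0.080) and MRFAP1 (0.088). The last 3 members varied by 1.39 log2 units or less over the groups, so a small distance there carries little. The likeness is a description over 8 group means of the same libraries, with no test.

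The authors' deposited tables of the same comparisons against DMSO can be set beside these calls. In the authors' deposited table for U-937 the members called at an adjusted p under 0.05 numbered 7 with ATRA, 4 with Corin and 7 with both, all higher. In the authors' deposited table for SKNO-1 they numbered 0 of 9 listed with ATRA, 4 higher and 1 lower with Corin, and 6 higher and 1 lower with both. In SKNO-1 TLR8 and TLR9 were listed without an adjusted p with ATRA, as were TLR9 and CD14 with Corin, and so could not be called. The same held for TLR9 and CD14 in U-937 with ATRA and with Corin. For TLR1 with ATRA in SKNO-1 the authors' deposited table lists a log2 fold change of -2.16 with an adjusted p of 0.0874, and for TLR6 -1.51 with 0.758, near the estimates above in size but not called.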

How the data were processed

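RNA of 16 libraries (2 lines, 4 treatments, 2 libraries per group) was analysed from the deposited tables. Per the submitters' processing notes the reads were handled with Trimmomatic, STAR and RSEM on hg38, with no versions; the annotation release and strand setting are not given in the sources used here. Per the file headers the authors deposited RSEM estimated counts and TPM per gene, and 20.4% of the positive estimated counts were not whole. The authors' deposited comparison tables, made with DESeq2 per the submitters' processing notes, hold log2 changes and adjusted p-values. Labels describe paired-end reads and file names a single-end mark; which was counted is not known here.

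The estimated counts were rounded, which changed library totals by at most 42.03. They were filtered (filterByExpr, minimum count 10), scaled by TMM and tested with edgeR 4.0.16 (quasi-likelihood F test, robust; R 4.3.3, limma 3.58.1), with Benjamini-Hochberg adjustment over all genes tested (17479 for SKNO-1, 17717 for U-937, 19872 for both lines together). Contrasts within a line came from a fit of its 8 libraries, and contrasts between lines from all 16. SE is the absolute log2 fold change divided by the square root of F, and is not given where a group had 0 counts, for which the floor was 3 counts over the group. CPM uses TMM-scaled totals. The script was tested on simulated data. Alternatives were library totals, no filter, a replicate block, DESeq2 1.42.0, only the groups compared, leaving out each library and TPM for levels; removal of a GC trend and summing TLR1 with TLR6 were chosen after seeing the data. Every member is named; of the pathway list, the 4 called genes per line that rose most and the 4 that fell most under both agents, at a mean of 1 CPM or more, and genes of the list that a sentence counts. TLR3, TLR7, TLR10, TIRAP, TNF and IL1B were picked from the list after their values were seen. The members, the lists and the motifs were chosen with earlier results of these data known. The labels do not say whether equal replicate numbers pair the libraries, so the main fits used no replicate block. Sequences are from RefSeq on GRCh38.p14.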

Additional observations from a re-analysis of the deposited data

Results flagged for a closer look

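These results stood out because the response to the same treatment differed between the lines in the test of that difference (edgeR's quasi-likelihood test, log2 response in U-937 minus that in SKNO-1). With ATRA the differences were 5.08 for TLR1, 4.39 for TLR6, 3.51 for LY96, 1.14 for MYD88 and 0.88 for TLR4. With Corin they were -1.54 for TLR1, -1.40 for TLR6, -2.04 for LY96 and 0.69 for TLR4. With both agents they were 2.76 for TLR1, 2.42 for TLR6, 1.64 for MYD88, 1.498 for TLR4 and 0.46 for TLR2, and CD14 had an adjusted p of 0.00824, on counts of 0 in SKNO-1 with DMSO. The TLR2 difference was called at an adjusted p of 0.0305 and lost with library totals (0.154), without the filter (0.0516) and without any one of 6 of the 8 libraries (0.0508 to 0.160). The TLR6 difference with Corin was lost without any one of 7 of the 8 libraries, and those of TLR1 and LY96 with Corin without U-937 DMSO replicate 2 (0.149 and 0.0621). The lines also differ in medium, and the part of that in these differences cannot be told apart.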

How the results depend on the processing

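Of 87 member calls over 16 comparisons, 63 were kept in every alternative run and 24 were lost at least once, and 21 of 61 uncalled values became called at least once. One called result lost its direction: TLR9 between the lines in DMSO was at 0 without U-937 DMSO replicate 2 and at 6.491 (fitted log2, dependent on the prior count) without replicate 1. With only the groups compared, member calls went from 5 to 0 for ATRA (all genes 239), 7 to 4 for Corin (3776) and 4 to 9 for both against Corin (7440), all in SKNO-1. Without the filter all genes called were 1963 for ATRA and 4238 for both against Corin in SKNO-1, and additivity gave 2 members and 1445 genes there and 1 member for U-937. After removal of the GC trend the SKNO-1 counts were 2596 for ATRA, 3055 for both against Corin and 3 members with 673 genes for additivity, U-937 additivity gave 2 members, and the difference between lines with Corin gave 4559 genes. DESeq2 gave 1 member and 298 genes for additivity in SKNO-1 and 1 member in U-937. The replicate block gave 1066 genes for both against Corin and 20 for additivity in SKNO-1. The cause of these shifts was not tested. The labels do not say whether equal replicate numbers pair the libraries. Correlations of same-numbered deviations ran from -0.487 to 0.415, which does not settle it. No other count of calls moved by over 1.5 times under the block.

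Leaving out each library gave these ranges of members and of all genes called. In SKNO-1 they were 1 to 5 and 562 to 5335 for ATRA, 4 to 7 and 3626 to 9520 for Corin, 7 to 9 and 5469 to 11100 for both, 7 to 8 and 4962 to 5231 for both against ATRA, 1 to 2 and 397 to 466 for both against Corin, and 0 to 3 and 7 to 5648 for additivity. In U-937 they were 7 to 8 and 5590 to 5991 for ATRA, 4 to 6 and 1332 to 1887 for Corin, 7 to 8 and 10426 to 10959 for both, 4 to 6 and 6712 to 7731 for both against ATRA, 7 and 9677 to 9959 for both against Corin, and 0 to 1 and 3098 to 4028 for additivity. Between lines they were 5 to 8 and 11486 to 12686 in DMSO, 5 and 2807 to 4965 for ATRA, 1 to 4 and 1524 to 4471 for Corin, and 5 to 7 and 6953 to 8575 for both. The single library left in a group was assumed to vary like the other groups. With 2 libraries a group and at most 10 counts per DMSO library for CD14, TLR8 and TLR9, small changes of these genes were not detectable.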
